A study of Drosophila melanogaster with 12 samples.

Results

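In total, 37 genes that carry only a CG number as their symbol, out of 5979 such genes among 13825 quantified genes, stood high in the isolated proximal part (PP) of lglRNAi;RasV12 salivary glands. Levels are transcripts per 1000000 (TPM), a value per length of transcript, summed per gene. The genes were chosen by these levels. A gene was taken if its mean over the 3 PP-libraries was at least 5 TPM and at least 3 times the sum of 0.5 TPM and the largest mean among 3 groups of entire glands, w1118, RasV12 and lglRNAi;RasV12. The difference between the PP and entire glands thus chose the genes and is described here without a test. The choice used the entire glands through their largest mean, which it capped, and set no direction between them. They were compared with each other by tests, and since their levels entered the choice in this way, the shares of the 37 genes called there are descriptions.

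Salivary glands (SGs) of larvae at 96 h after egg deposition (AED) were collected in 4 groups of 3 replicates, each a pool of dissected glands. According to the labels every mother carried the BxGal4 driver together with a Drs-GFP reporter in all 4 groups, whereas the study's list of crosses for these glands gives the reporter only with the l(2)gl RNAi, so that it may differ between the groups. Fathers were w1118 for the control group, w1118;;UAS-RasV12 for RasV12-glands, and w1118;UAS-l(2)glRNAi;UAS-RasV12 for lglRNAi;RasV12-glands, from which both entire SGs and the PP were prepared. RasV12 is a dominant-active Ras, l(2)gl is a cell polarity gene, and BxGal4 drives the transgenes across the secretory epithelium of the gland. The antibiotic-treated food was common to all larvae. The tissue that the study's text calls the proximal part is named posterior part in the sample labels. No PP of w1118 or RasV12-glands was analysed here, so that against these groups genotype and position change together, and entire lglRNAi;RasV12-glands contain the PP.

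The larval SG consists of a sheet of large polyploid secretory cells that make glue and other secreted proteins, a duct, and between them a ring of small imaginal cells. Glue gene expression starts in distal secretory cells and spreads towards the proximal end of the gland in the third larval stage. Genes known by a CG number have a predicted transcript, and usually a predicted protein, but no name given after a study of their function. All 37 genes are annotated as protein-coding. For only 7 of them did the reference tables hold a synonym that names a protein family or an enzyme, and no role is given for the rest.

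The libraries held between 27584224 and 73043536 estimated counts, and PP replicate 2 was the deepest. Ras85D, the gene from which RasV12 is made, was at 21.4 to 23.5 TPM in w1118-glands and at 1181 to 2016 TPM in all libraries labelled with RasV12. l(2)gl was lower in each entire lglRNAi;RasV12-library (29.96 to 40.4 TPM) than in each RasV12-library (45.5 to 56.7 TPM), but lay above the w1118-libraries (16.8 to 23.7 TPM), so that the knockdown shows against RasV12-glands and not against w1118-glands. In the PP it was at 37.6, 46.8 and 43.97 TPM, which overlaps with RasV12-glands. Genotypes are given as labelled. Transcripts of secretory cells were present in the PP, yet 5 of 9 secretory markers were lower there than in the entire gland of this genotype, namely CrebA and the glue genes Sgs3, Sgs4, Sgs7 and Sgs8, and none was higher. Of all 9012 genes tested, 8.21% were higher and 6.24% lower in this comparison. Markers of the duct and imaginal ring were higher for Ser and trh, which are 2 of 5 tested and had PP-means of 1.43 and 1.40 TPM. The list summed to between 26.5 and 32.9 TPM in the PP against 18.5 to 21.9 TPM in entire lglRNAi;RasV12-glands. Most of this sum was eyg, at 21.8 to 26.6 TPM in the PP and without a call. None of the list was higher in the PP than in w1118-glands. Fat body genes were lower in 7 of 8 cases and summed to 3277 to 3737 TPM in the PP against 11753 to 16627 TPM in entire lglRNAi;RasV12-glands. In whole tissue, more cells of a type and more RNA per cell cannot be told apart.

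As a group, the 37 genes made up 9.19% of all TPM in the PP. Their sum was 72519, 109850 and 93264 TPM in the 3 PP-libraries, 22651, 23538 and 23939 TPM in entire lglRNAi;RasV12-glands, 19445, 15147 and 17814 TPM in RasV12-glands, and 2945, 3780 and 5185 TPM in w1118-glands. The sum is carried by few genes, because the highest alone held 62.4% of it in the PP and the first 6 held 95.8%. In all, 6 genes had a PP-mean of at least 1000 TPM, 9 lay between 100 and 1000 TPM, 17 between 10 and 100 TPM and 5 under 10 TPM. In 35 of the 37 genes all 3 PP-libraries lay above all 9 libraries of entire glands, which holds for 10.9% of all genes tested and follows here from the choice of the genes. The exceptions were CG13323 and CG13324, which were high in PP replicate 1 alone.

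**Figure D1:**
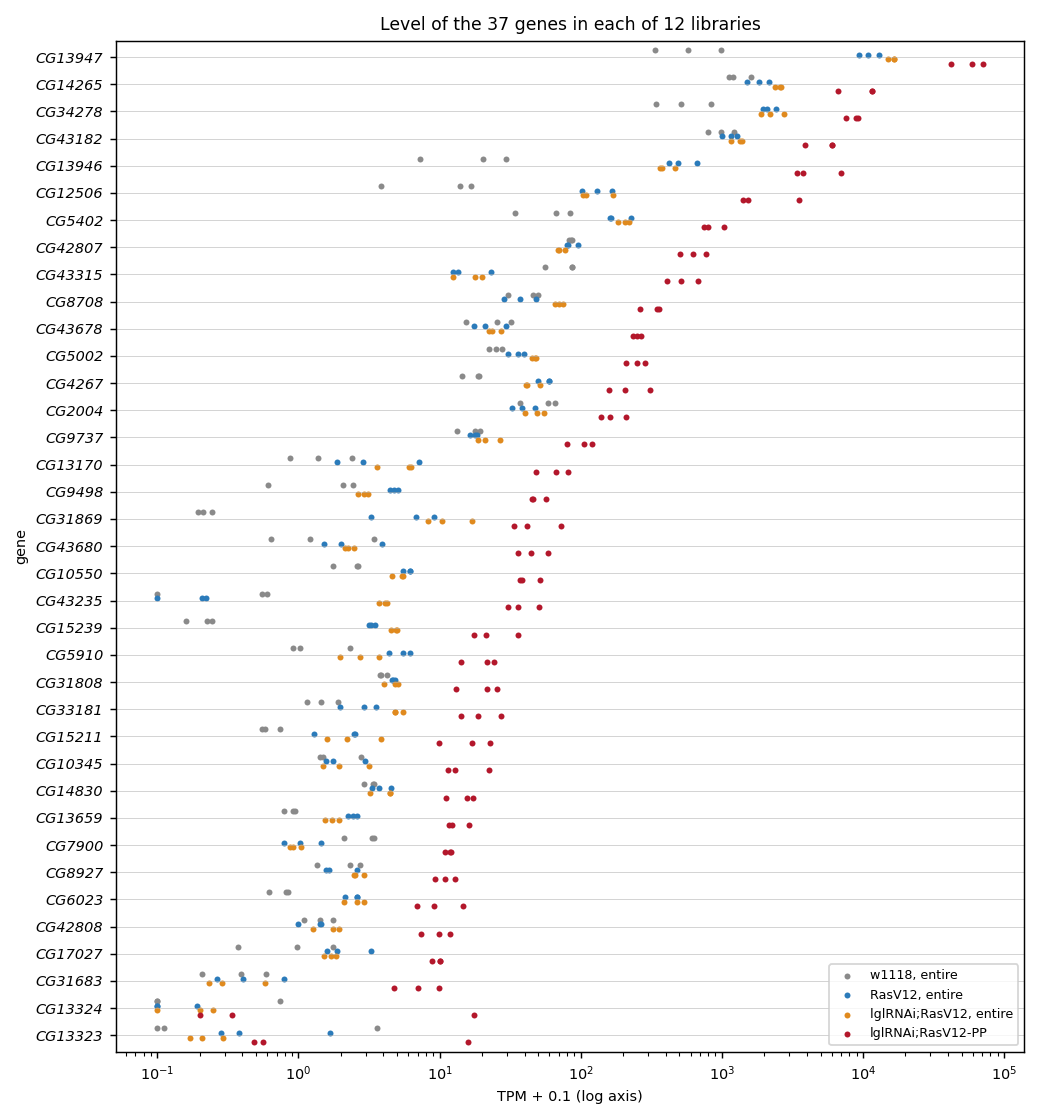
TPM plus 0.1 on a log axis for each of the 37 genes, in order of their mean in the PP, with 1 point per library (3 libraries each of entire w1118, entire RasV12, entire lglRNAi;RasV12 and lglRNAi;RasV12-PP). In 35 genes the 3 red PP-points lie to the right of all 9 points of entire glands, whereas CG13324 and CG13323 at the bottom have a single high PP-point.

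CG13947 was the second most abundant gene of the PP, with 42258, 70952 and 58848.5 TPM in the PP-replicates. In entire glands it measured 15115, 16569 and 16710 TPM in lglRNAi;RasV12, 13086, 9440 and 10832 TPM in RasV12, and 335, 579 and 983 TPM in w1118. No group overlapped with another, and the order was w1118, RasV12, lglRNAi;RasV12, PP. The gene has 1 exon and lies on chromosome arm 2L, from 779173 to 779655 on the plus strand in the Ensembl annotation of assembly dm6.

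CG14265, on X within the gene dnc but on the opposite strand, ranked 13 in the PP with 6650, 11537 and 11573 TPM. It was at 2380, 2622 and 2568 TPM in entire lglRNAi;RasV12-glands, at 1842, 1494 and 2163 TPM in RasV12-glands and at 1132, 1192 and 1610 TPM in w1118-glands. The RasV12-libraries overlapped with those of w1118, and both groups lay under the lglRNAi;RasV12-libraries, which lay under the PP. CG34278, on 3R inside the span of cher, had 8859, 9200 and 7613 TPM in the PP and 2763, 1907 and 2181 TPM in entire lglRNAi;RasV12-glands. Its RasV12-libraries, at 2433, 1971 and 2072 TPM, lay in the range of the latter, and the w1118-libraries, at 343, 510 and 833.5 TPM, lay under both. CG43182, on X within CG32816, showed another order. It was at 6076, 3897 and 5993 TPM in the PP but at 799 to 1381 TPM in all 9 libraries of entire glands, where the 3 genotypes overlapped.

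The remaining genes over 1000 TPM, CG13946 and CG12506, are neighbours of CG13947. CG13946 was at 3753, 6955 and 3428 TPM in the PP, at 467, 367 and 376 TPM in entire lglRNAi;RasV12-glands, at 425, 486 and 666 TPM in RasV12-glands and at 7.11, 20.2 and 29.3 TPM in w1118-glands. CG12506 was at 1541, 3544 and 1413 TPM in the PP, at 170, 104 and 109.5 TPM in entire lglRNAi;RasV12-glands, at 130, 101 and 165 TPM in RasV12-glands and at 3.76, 16.5 and 13.9 TPM in w1118-glands. In both genes PP replicate 2 was about double the other PP-replicates, a spread that CG34278 did not have. All 6 genes over 1000 TPM consist of 1 exon. Over the whole group 12 of 37 genes (32.4%) have 1 exon, against 12.9% of the CG genes with at least 5 TPM in the PP.

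Among the 9 genes between 100 and 1000 TPM, CG5402 on 3R led with 796, 742 and 1039 TPM in the PP and 182, 221 and 206 TPM in entire lglRNAi;RasV12-glands. CG42807 on 2R was at 501, 629 and 768 TPM in the PP and between 69.2 and 94.9 TPM in all entire glands, with the lglRNAi;RasV12-libraries lowest. CG43315 on 2R was at 510, 407 and 673 TPM in the PP and at 12.4, 17.8 and 19.8 TPM in entire lglRNAi;RasV12-glands, so that its PP-mean was 31.8 times the mean of the entire glands of the same genotype. CG43678 on 3L had 269, 235.5 and 251 TPM in the PP, the closest agreement between PP-replicates among these 9 genes, and 15.3 to 32.1 TPM in all entire glands.

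CG8708 on 2R is listed with the synonym dC1GalT2, a galactosyltransferase of the kind that extends O-linked sugar chains. It was at 263, 349 and 358 TPM in the PP, at 65.1, 74.6 and 69.6 TPM in entire lglRNAi;RasV12-glands, while the other entire glands had 28.5 to 49.8 TPM and overlapped with each other. CG5002 on 2R was at 208, 287 and 252 TPM in the PP and at 45.3, 48.5 and 47.0 TPM in entire lglRNAi;RasV12-glands. CG4267 on 2L was at 159, 311 and 205 TPM in the PP, at 51.1, 40.7 and 41.5 TPM in entire lglRNAi;RasV12-glands and at 14.3, 18.8 and 18.6 TPM in w1118-glands. CG9737 on 3R, listed as a serine protease of the clip-domain type (c-SP5), was at 79.8, 105 and 119 TPM in the PP. Its 9 entire libraries lay between 13.2 and 26.5 TPM.

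A family was found in the annotation of 4 of the 37 genes. CG2004, CG9498, CG10550 and CG13659 carry synonyms of the ecdysteroid kinase-like family, which is named after insect enzymes that phosphorylate ecdysteroids, the moulting hormones. This grouping was noticed after the values were seen, and no test was made of it. CG9498 on 2L was at 45.7, 45.0 and 57.0 TPM in the PP and between 0.50 and 5.01 TPM in all entire glands. CG10550 on 3R was at 36.8, 51.1 and 38.4 TPM in the PP and at most 6.08 TPM in entire glands. CG13659, which forms a run of 7501 bp with it, was at 11.6, 15.9 and 12.2 TPM in the PP and at most 2.49 TPM in entire glands. CG2004 on X was the most abundant of the family, with 139, 162 and 210 TPM in the PP, and had 32.3 to 65.4 TPM in entire glands. Of 51 genes with such a synonym, 14 reached 5 TPM in the PP, and 10 of these are not among the 37 genes. CG31370 and CG31436, which lie between CG13659 and CG10550, had PP-means of 52.7 and 37.4 TPM, but their RasV12-means were 60.1 and 41.9 TPM. CG13360 was lower in the PP (mean 10.1 TPM) than in any entire group (40.6 to 55.3 TPM). CG10559 missed the fold limit with a ratio of 2.90.

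The chromosome arms carried 9 (2L), 8 (2R), 5 (3L), 8 (3R) and 7 (X) of the genes. Of the 37 genes, 13 lay within 10 kb of another one, in 6 runs, of which 5 are pairs. The same share was not computed for other CG genes, so that no clustering particular to this group is read from it. The longest run is that of CG12506, CG13946 and CG13947, which lie one after the other on the plus strand within 6109 bp of 2L (773547 to 779655). In this order their PP-means were 2166, 4712 and 57353 TPM, and their ratios to the largest entire mean plus 0.5 TPM were 16.3, 8.96 and 3.56, so that the most abundant gene had the smallest ratio. The next gene, Gr21a, which encodes a receptor for carbon dioxide, was at most at a mean of 0.11 TPM in any group. The counts of CG12506 and CG13946 were not whole numbers in most libraries, whereas their sum was whole within 0.01 in 11 of 12 libraries. Reads were thus shared between these neighbours by the authors' program, and the split between them is uncertain.

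CG43678 and CG43680 are the ends of a row on the minus strand of 3L (15049179 to 15053351), inside the large gene Sytbeta. Between them lie 4 other genes of which CG12310 was the most abundant gene in the neighbourhood, with a PP-mean of 66115 TPM. It failed the limit of 3 with a ratio of 2.26, as its mean in w1118-glands was already 29196 TPM. CG43680 had 44.4, 36.1 and 58.2 TPM in the PP and 0.53 to 3.80 TPM in entire glands. CG43679, in the middle of the row, had means of 1268 TPM in the PP and 1431 to 1602 TPM in entire glands, and was thus not higher in the PP. CG13170 and CG43315 are neighbours on 2R (12240399 to 12241872). CG13170 was at 80.5, 48.3 and 67.0 TPM in the PP and between 0.77 and 7.04 TPM in entire glands. CG43316, the next gene on the same strand, was below the minimum with a PP-mean of 3.44 TPM, and was listed at 0 in all w1118- and RasV12-libraries. CG42808, next to CG42807 on 2R, was at 7.32, 9.85 and 11.8 TPM in the PP and at most 1.83 TPM in entire glands. Near the 6 runs, 30 other genes were quantified and 12 had at least 5 TPM in the PP, but none met both limits.

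**Figure D2:**
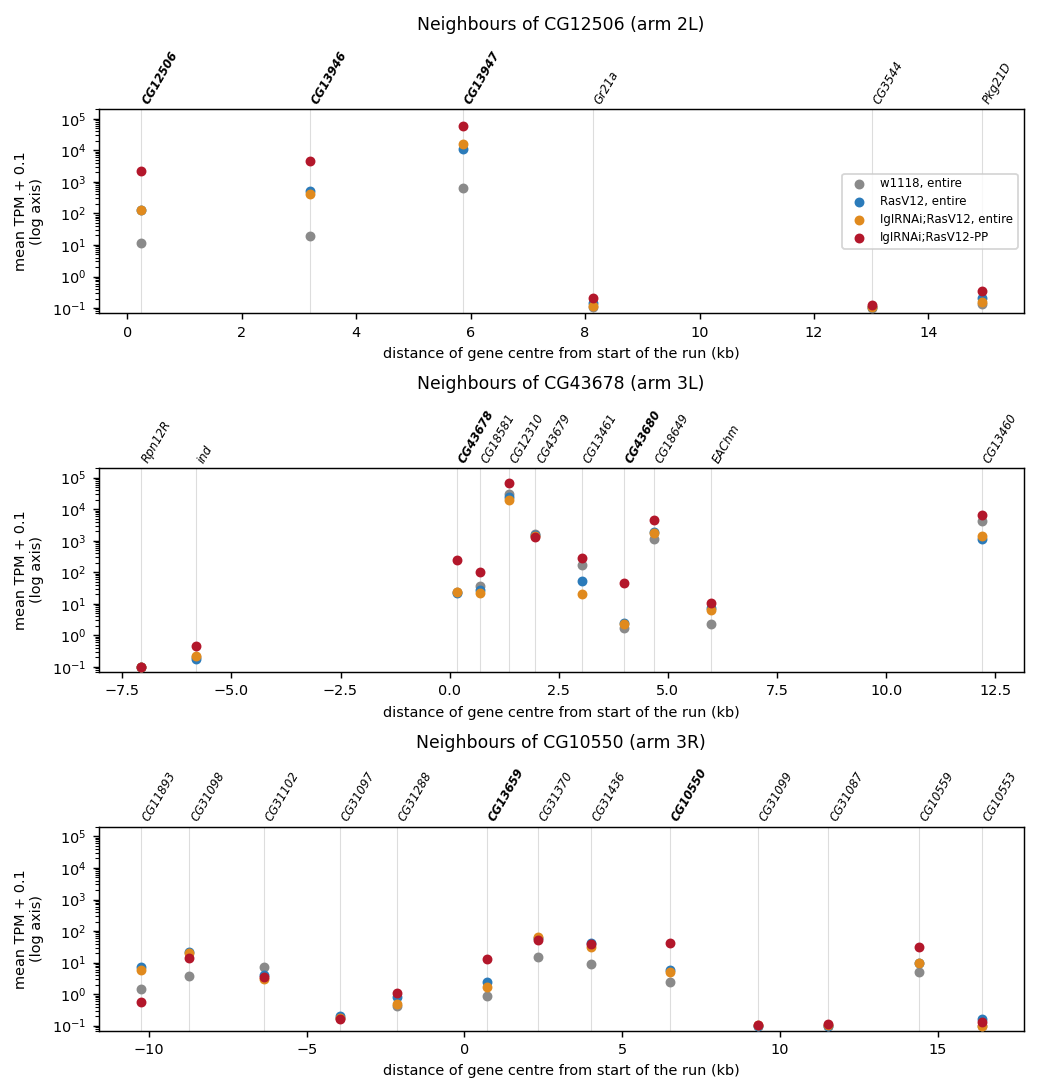
Mean TPM plus 0.1 (log axis) of each gene shorter than 10 kb near 3 of the runs, against the distance of its centre from the start of the run in kb, with 1 point per group (means of 3 libraries). Names in bold are among the 37 genes. On 2L the 3 genes are high and their neighbours near 0, and on 3L the bold genes stand beside the more abundant CG12310. On 3R the PP-means of CG31370 and CG31436, between the bold genes, lie under their means in RasV12-glands.

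The genes under 100 TPM not named so far ranged from CG31869 (33.5, 72.2 and 41.7 TPM in the PP) to CG31683 (4.67, 6.91 and 9.75 TPM). CG31869 was at 16.9, 8.15 and 10.4 TPM in entire lglRNAi;RasV12-glands, at 9.01, 6.72 and 3.14 TPM in RasV12-glands and at 0.14, 0.095 and 0.11 TPM in w1118-glands. CG31683 stayed under 0.70 TPM in all entire glands, yet its counts were whole in none of the 12 libraries and its level is therefore uncertain. CG43235 was at 30.5, 35.8 and 50.4 TPM in the PP and at 3.62, 3.99 and 4.13 TPM in entire lglRNAi;RasV12-glands, but at most at 0.50 TPM in the other entire glands. CG7900 on 3R had the most even PP-levels of all 37 genes, with 12.0, 10.9 and 11.8 TPM. CG17027, listed as an inositol monophosphatase (IMP), was at 9.97, 8.68 and 9.96 TPM in the PP and at 0.27 to 3.17 TPM in entire glands. In 11 of the 37 genes the PP-mean was at least 10 times the mean of entire lglRNAi;RasV12-glands, with a median ratio of 6.21 for all 37.

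The limits cut through a continuous range. Just inside the fold limit were CG2004 (ratio 3.14), CG14830 (3.27) and CG13323 (3.32), and just outside were CG10559 (2.90), CG16799 (2.88) and CG8066 (2.87). Between a ratio of 2 and 3 lay 49 further CG genes with at least 5 TPM. At the limit of 5 TPM, CG13323 (5.52 TPM), CG13324 (5.95 TPM) and CG31683 (7.11 TPM) were just inside, while CG32170 (4.99 TPM), CG12896 (4.77 TPM) and CG6283 (4.72 TPM) were just outside. If TPM were divided by the TMM factors of the libraries, 33 genes would be left, without CG13323, CG14830, CG2004 and CG7900.

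CG13323 and CG13324, neighbours on 2R, differed from all other genes in the group. CG13324 was at 17.5 TPM in PP replicate 1, but at 0.24 and 0.10 TPM in the other PP-replicates. CG13323 was at 15.7 TPM in PP replicate 1 and at 0.46 and 0.39 TPM in the others, and its highest entire library was w1118 replicate 2 with 3.48 TPM. Their PP-means of 5.95 and 5.52 TPM thus rest on 1 library, and without it both genes drop out. Counts of each gene were whole in 9 libraries, and their sum was whole in 12. In PP replicate 1 they had 179.5 and 167.5 counts. Reads were thus shared between these neighbours, and the split between them is uncertain. Genes of midgut digestion stood high in the same library. The 6 midgut markers, all of them trypsins or Jonah proteases, summed to 113 TPM in PP replicate 1, to 1.35 and 1.47 TPM in the other PP-replicates, and to at most 2.53 TPM in entire glands. Among these, Jon65Aiv was at 68.3, 0.70 and 0.76 TPM and epsilonTry at 28.1, 0.075 and 0 TPM in the PP-replicates. Beyond that list, the lysozyme genes LysD (125, 0.22 and 0.87 TPM) and LysB (78.0, 0.37 and 0.36 TPM) showed the same order. The part of such tissue in the levels of CG13323 and CG13324 was not tested. For the other 35 genes the lowest PP-library was above all entire glands, so that their place above entire glands holds without PP replicate 1.

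**Figure D3:**
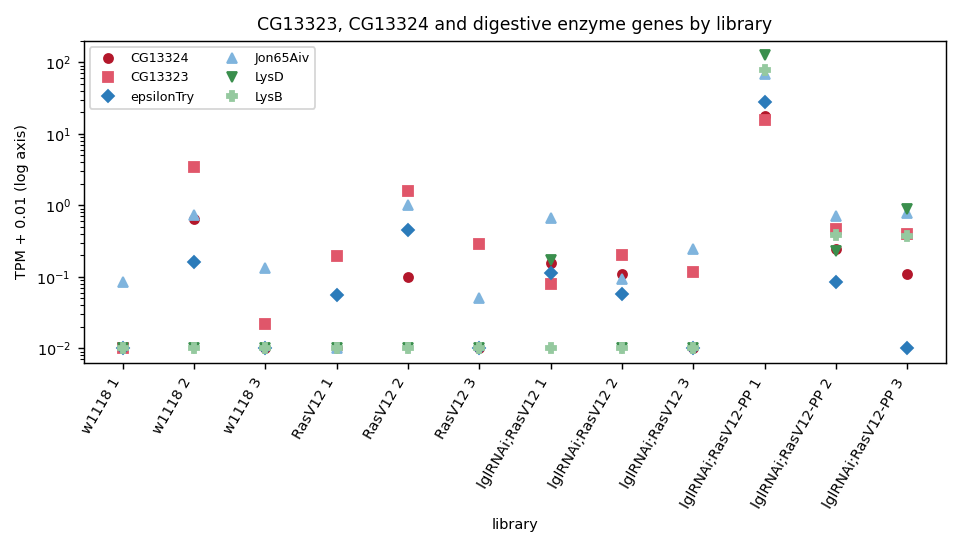
TPM plus 0.01 (log axis) of CG13323, CG13324, the midgut proteases Jon65Aiv and epsilonTry and the lysozymes LysB and LysD in each of the 12 libraries. In PP replicate 1 all 6 genes lie between 15.7 and 125 TPM, and in the other 11 libraries all are at or under 3.48 TPM.

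The spread between PP-replicates was larger for the 37 genes than for most genes. The median coefficient of variation over the 3 PP-libraries was 24.5%, against 9.38% for all tested genes with at least 5 TPM in the PP, and it ranged from 5.41% for CG7900 to 55.2% for CG12506 among the genes that do not rest on 1 library. This order was not even across libraries. PP replicate 2 was the highest PP-library for 16 of the 37 genes (43.2%), but for 20.8% of all tested genes, and PP replicate 1 was the lowest for 22 of the 37 genes, but for 23.9% of all tested genes, of which 53.7% were lowest in replicate 2. PP replicate 2 is the deepest library. The number at the end of its deposited label, which is not the replicate number, is shared with no other library.

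The genes with a peak in PP replicate 2 were mostly those that were also higher in entire glands with RasV12. Of the 12 genes higher than w1118 in RasV12- or lglRNAi;RasV12-glands, which are described next, 11 had their highest PP-value in replicate 2, the exception being CG43235. Of the other 25 genes, 5 had it there. The same split was seen over all genes. Among 772 tested genes that were higher than w1118 in either entire comparison and had at least 5 TPM in the PP, 58.9% were highest in PP replicate 2, against 15.8% of the 5037 genes that were not higher. The antimicrobial peptide genes AttD (360, 1258 and 347 TPM), CecA1 (219, 894 and 261 TPM) and Def (78.9, 232 and 56.1 TPM) were likewise highest in replicate 2, whereas Drs was nearly even (37456, 38999 and 37745 TPM). Some markers of other tissues were low in the same library. The 10 muscle genes summed to 14.8 TPM in PP replicate 2, against 32.0 and 49.9 TPM in replicates 1 and 3, with Mhc at 2.49, 0.30 and 3.73 TPM. The hemocyte gene Hml was at 2.23, 0.95 and 1.80 TPM. Other markers were not lowest there, such as the hemocyte gene crq (63.2, 78.5 and 72.0 TPM) and the muscle gene Prm (2.06, 2.57 and 2.90 TPM). The sums of the hemocyte list (82.7, 88.7 and 90.5 TPM) and of the cuticle and tracheal list (22.0, 25.5 and 36.4 TPM) were not lowest there either. The fat body sum was lowest there by little (3737, 3277 and 3294 TPM). Their part in the levels of the 37 genes was not tested. This split was made after the values were seen and was not tested.

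**Figure D4:**
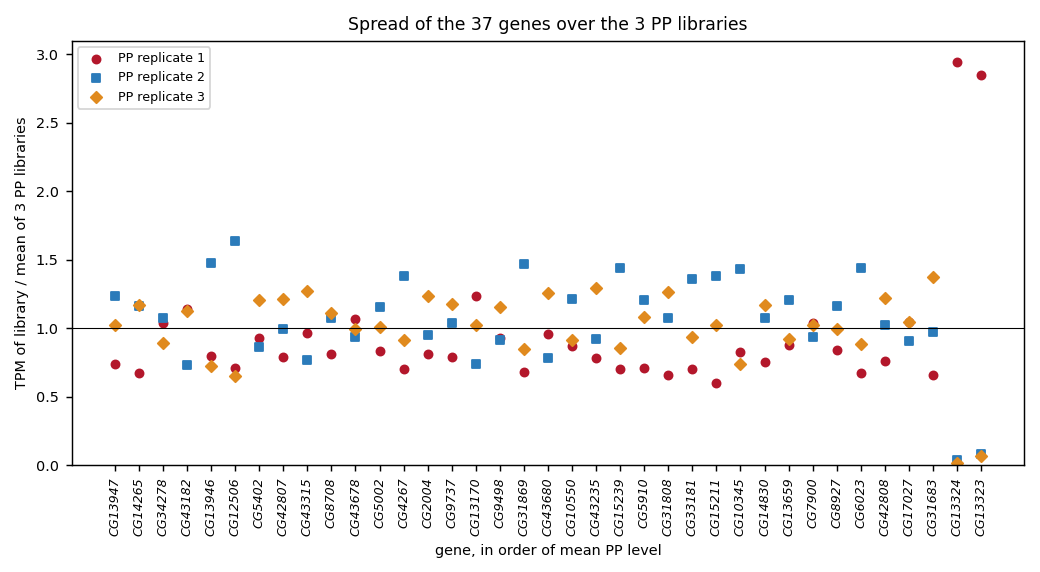
TPM of each PP-library divided by the mean of the 3 PP-libraries (no unit, linear axis) for the 37 genes in order of their PP-mean. For CG13946 and CG12506 replicate 2 lies above both other replicates by far, whereas CG43182, CG43315 and CG13170 have their lowest value there, and for CG13324 and CG13323 replicate 1 stands near 3 and the others near 0.

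The comparison of RasV12- with w1118-glands asked which of the genes respond to RasV12 in the entire gland. Of the 37 genes, 36 were tested (CG13324 had too few counts), and 35 would pass the count filter in entire glands alone. Differential expression required a log2 fold change of 1 or more in size and an adjusted p in edgeR of at most 0.05. By these limits 10 genes had risen and 4 had fallen in RasV12-glands, against 11.3% and 8.99% of all genes tested. As the largest entire mean was capped by the choice, nothing is read from the distance of these shares to those of all genes. The median log2 fold change of the 36 genes was -0.17 against 0.00 for all genes. If libraries were scaled by their total in place of TMM, the medians moved to 0.25 and 0.42, a shift that concerns all genes, and fold changes here are relative to TMM. TPM values are not scaled in this way, so that CG42807 with equal TPM in both groups had a log2 fold change of -0.68.

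The strongest rise was that of CG31869, by 5.12 ± 0.58 on the log2 scale (SE; edgeR, adjusted p = 2.3e-05). CG15239 on X was at 3.18, 3.05 and 3.40 TPM in RasV12-glands and at 0.059, 0.14 and 0.13 TPM in w1118-glands, a log2 fold change of 4.18 ± 0.38 (edgeR, adjusted p = 4.91e-06). In the PP it reached 17.3, 35.7 and 21.2 TPM. The run on 2L followed, with a log2 fold change of 4.12 ± 0.43 for CG13946 (edgeR, adjusted p = 1.21e-05), of 3.45 ± 0.32 for CG13947 (adjusted p = 4.92e-06) and of 2.84 ± 0.48 for CG12506 (adjusted p = 0.000461). In these 5 genes the lowest RasV12-library was above the highest w1118-library. Smaller rises were found for CG34278 (1.25 ± 0.23, adjusted p = 0.000938 in edgeR), CG5910 (1.31 ± 0.34, adjusted p = 0.00732), CG6023 (1.17 ± 0.31, adjusted p = 0.0087), CG15211 (1.33 ± 0.46, adjusted p = 0.0314) and CG4267 (1.03 ± 0.22, adjusted p = 0.00201). The calls of CG15211 and CG4267 did not hold throughout. Leaving out any w1118-library, or RasV12 replicate 1 or 2, raised the adjusted p of CG15211 in edgeR to between 0.0569 and 0.108, and without w1118 replicate 1 or RasV12 replicate 3 the log2 fold change of CG4267 was 0.99.

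Other genes that stood high in the PP were lower in RasV12-glands. CG43315 fell by 2.94 ± 0.25 on the log2 scale (edgeR, adjusted p = 3.02e-06), from 56.2, 86.6 and 86.9 TPM in w1118-glands to 12.3, 13.4 and 23.2 TPM. CG7900 fell by 2.20 ± 0.21 (edgeR, adjusted p = 6.22e-06), from 2.02, 3.35 and 3.20 TPM to 0.69, 0.92 and 1.34 TPM. For both genes the groups did not overlap, although the PP of lglRNAi;RasV12-glands was above either. CG2004 fell by 1.12 ± 0.19 (edgeR, adjusted p = 0.00049), but its libraries overlapped in TPM, and when scaled by library totals its log2 fold change was -0.70 and the call was lost. CG43235 had 8, 10 and 0 counts in the w1118-libraries and 2, 2 and 0 in the RasV12-libraries. Its edgeR call (adjusted p = 0.0273) was lost without RasV12 replicate 1 or 3 or w1118 replicate 1 or 2, with adjusted p between 0.0511 and 0.122. RasV12 replicates 2 and 3 share the number at the end of their deposited labels with all w1118-libraries, and without RasV12 replicate 1 the comparison gave 9 higher and 4 lower genes.

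**Figure D5:**
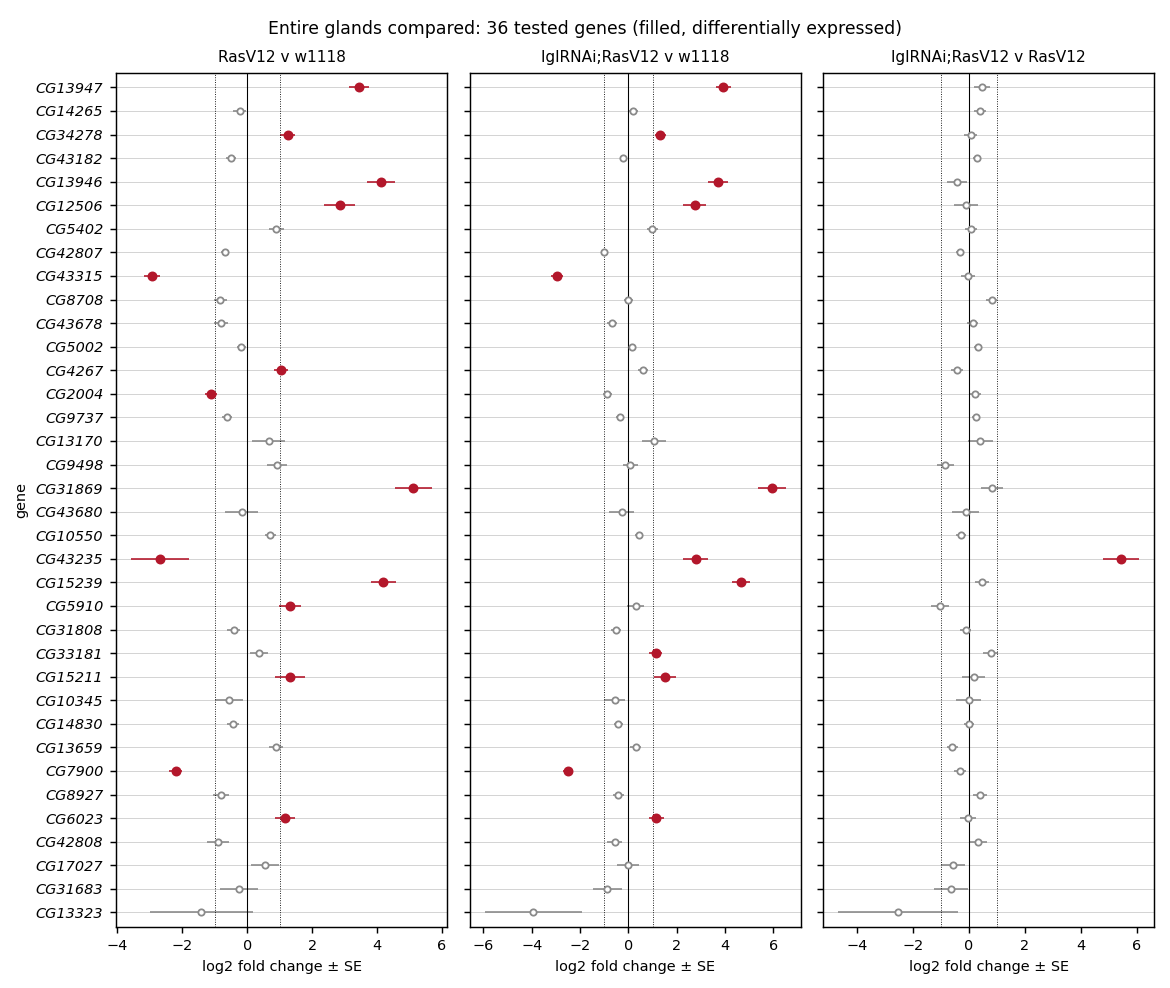
Log2 fold change of the 36 tested genes in 3 comparisons of entire glands, with bars for the SE from edgeR, filled red for differential expression and open grey for the rest, and dotted lines at -1 and 1. In RasV12-glands 10 genes are higher and 4 lower than in w1118-glands, in lglRNAi;RasV12-glands 10 and 2, and CG43235 is the single call between RasV12- and lglRNAi;RasV12-glands.

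Entire lglRNAi;RasV12-glands were set against w1118-glands to ask the same of the combined genotype. Of the 36 genes, 10 were higher and 2 lower, beside 12.1% and 7.87% of all genes tested. The comparison shares its w1118-libraries with the one before, and 8 genes were higher in both, namely CG13947, CG13946, CG12506, CG31869, CG15239, CG34278, CG15211 and CG6023. The largest log2 fold changes were again those of CG31869 (5.94 ± 0.58, adjusted p = 6.97e-06 in edgeR) and CG15239 (4.67 ± 0.38, adjusted p = 1.72e-06), followed by CG13947 (3.93 ± 0.32, adjusted p = 1.91e-06) and CG13946 (3.70 ± 0.42, adjusted p = 2.13e-05). CG43235 rose by 2.78 ± 0.51 (edgeR, adjusted p = 0.000749) and CG33181 on X by 1.13 ± 0.27 (edgeR, adjusted p = 0.00434). CG33181 was at 5.40, 4.69 and 4.72 TPM in lglRNAi;RasV12-glands and at 1.06, 1.80 and 1.34 TPM in w1118-glands. CG43315 and CG7900 were lower here too, with log2 fold changes of -2.96 ± 0.25 and -2.50 ± 0.21 (edgeR, both adjusted p = 2.41e-06). CG5402 missed the limit with 0.99 and passed it when replicate numbers entered the model as a block (1.03). The call of CG15211 (adjusted p = 0.016) was lost without w1118 replicate 2 or lglRNAi;RasV12 replicate 1, with an adjusted p of 0.0648 and 0.0812. All lglRNAi;RasV12-libraries share the number at the end of their deposited labels and all w1118-libraries share another one, so that this number and the genotype cannot be told apart.

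Between lglRNAi;RasV12- and RasV12-glands, 1 of the 36 genes was higher and none lower, beside 2.02% and 1.3% of all genes tested. By unadjusted p under 0.05 there were 8 genes in either direction, and DESeq2 called 1 gene lower, CG5910. The gene that was higher is CG43235, with 78, 63 and 59 counts in lglRNAi;RasV12-glands against 2, 2 and 0 in RasV12-glands. As all RasV12-libraries were at or under the floor of 3 counts per library, the difference is given as at least 20.8-fold (edgeR, adjusted p = 0.000398), and the PP was at least 230-fold above the same floor. With RasV12 replicate 1 alone, the only RasV12-library whose label ends in the same number as those of the lglRNAi;RasV12-glands, an alternative chosen after seeing the data, the log2 fold change was 4.90 against 5.46 with all 3, and the adjusted p in edgeR was 0.0595. In that fit the lone library is assumed to vary like the other groups. CG43235 lies within Tep2, which encodes a thioester-containing protein, on the opposite strand. Exons of Tep2 cover 14.0% of its exonic bases, and the library kit does not mark strand. The means of Tep2 were 7.04, 6.495, 10.7 and 4.73 TPM in w1118, RasV12, lglRNAi;RasV12 and PP. Like CG43235 it was thus higher in lglRNAi;RasV12- than in RasV12-glands, but unlike it was lowest in the PP, and the part of its reads in CG43235 was not tested.

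For 21 of the 36 genes, no comparison of entire glands met both limits of differential expression, which does not mean that their levels were equal. The same share was not computed over all genes tested, so nothing about these genes is read from the count. CG13323 is counted here although it passed the count filter only through the PP. Among the genes without a call were CG14265 and CG43182, which ranked 13 and 23 in the PP. Their log2 fold changes were -0.23 ± 0.21 and -0.50 ± 0.15 for RasV12 against w1118. For lglRNAi;RasV12 against RasV12 they were 0.40 ± 0.21 and 0.29 ± 0.15. CG43678, CG43680, CG9498 and CG13170, whose PP-means were at least 10 times those of entire lglRNAi;RasV12-glands, also belong to these genes. By adjusted p in edgeR alone, CG43182 (0.0151) and CG43678 (0.00749) were lower and CG9498 (0.0251) was higher in RasV12- than in w1118-glands. The log2 fold changes of CG43678 and CG9498 there were -0.81 and 0.91, under the limit in size. CG43678 was lower by adjusted p in lglRNAi;RasV12-glands too (0.0181 in edgeR). These falls are relative to TMM and are not seen alike in TPM. The mean of CG43182 was 1003 TPM in w1118-glands and 1147 TPM in RasV12-glands. For CG43678 the means were 24.3, 22.6 and 24.3 TPM in w1118, RasV12 and lglRNAi;RasV12. CG8708 was higher in lglRNAi;RasV12- than in RasV12-glands by adjusted p (0.016 in edgeR), but its log2 fold change of 0.82 ± 0.19 was under the limit.

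Immune and stress genes were looked up beside the 37 genes, as the study concerns the antifungal peptide gene Drosomycin (Drs). Of 14 antimicrobial peptide genes, 7 were higher in the PP than in the entire gland (Drs, AttD, CecA1, CecA2, CecB, CecC and Def) and 4 were lower (AttA, AttB, AttC and Dro). Their median log2 fold change was 1.80, against 0.00 for all genes. In entire lglRNAi;RasV12-glands AttA (47.5, 1.97 and 3.75 TPM), AttB (70.7, 2.31 and 6.94 TPM) and Dro (25.3, 5.26 and 1.51 TPM) were highest by far in replicate 1. For these genes the other replicates overlapped with the PP (0.40 to 4.02 TPM), so that their lower calls rest largely on 1 library. AttC, at 54.0, 5.37 and 4.56 TPM, lay above the PP (at most 0.86 TPM) in each replicate. Drs was at 37456, 38999 and 37745 TPM in the PP and at 9299, 10492 and 9839 TPM in entire lglRNAi;RasV12-glands, and thus lay between CG13947 and CG14265. Outputs of the stress kinase JNK differed in direction. PP-means were 249 TPM for Mmp1 and 1.63 TPM for Mmp2, against 201 and 0.56 TPM in entire lglRNAi;RasV12-glands. For puc they were 41.7 against 97.2 TPM, and for upd3 7.54 against 7.98 TPM. Of 8 tested, none was called higher in the PP and the cell death gene hid was called lower, with a median log2 fold change of -0.02. Of 7 genes of the JAK-STAT pathway, Socs36E, an inhibitor of the pathway, was higher and its receptor-like regulator et was lower. Cuticle and tracheal genes were higher for Gasp, serp and verm, that is for 3 of 5 tested, and their sum was 22.0 to 36.4 TPM in the PP against 6.90 to 11.9 TPM in entire lglRNAi;RasV12-glands. Hemocyte markers summed to 82.7 to 90.5 TPM in the PP and to 69.0 to 116 TPM in entire lglRNAi;RasV12-glands, of which crq alone held 63.2 to 78.5 TPM in the PP. Of the 10 genes srp was lower and none was higher, while the log2 fold changes of the 8 others besides crq lay between 0.41 and 1.44. The list's median was 0.55, and eater was called higher with the replicate block. What part other cell types have in the levels of the 37 genes was not tested.

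Overlap with other genes limits some of the values. The whole span of 18 of the 37 genes overlaps another gene, in 15 of them on the other strand, while exons overlap exons of another gene in 11. This covers over 10% of the exonic bases in 3 genes, namely 63.1% of CG14830 by an antisense RNA, 15.8% of CG31808 by Cyt-c-d and 14.0% of CG43235 by Tep2. Cyt-c-d itself had a mean of at most 0.16 TPM in any group. The counts of 25 of the 37 genes were whole within 0.01 in all 12 libraries, so that no division of reads with other genes is seen in them. Reads given wholly to 1 of 2 overlapping genes would not show in this way. CG14830 is among the 25, but the antisense RNA that overlaps it had no value in these data. Besides CG12506, CG13946 and CG31683, the most divided were CG31808 (whole in 4 libraries) and CG10345 (whole in 7).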

How the data were processed

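Entire SGs of w1118, RasV12 and lglRNAi;RasV12 larvae and the PP of lglRNAi;RasV12-glands were measured by paired-end sequencing of poly(A)-selected RNA. The authors pseudoaligned reads with kallisto 0.44.0 to all transcripts and deposited estimated counts, which are not normalized and can be fractional, and TPM per transcript. Their sleuth results were not used. Of 30503 transcripts, 30279 were matched to genes of the Ensembl annotation (dm6) and the rest held at most 0.359% of counts. Counts were summed per gene and rounded, and TPM were summed.

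In R 4.3.3, 9012 genes that passed the edgeR filter (minimum count 10 by group) were tested with edgeR 4.0.16 (TMM, quasi-likelihood test, all 12 libraries, Benjamini-Hochberg adjustment over all genes tested), and the code was tested on simulated data. DESeq2 1.42.0 and limma 3.58.1 served as alternatives. An exact permutation test of 3 against 3 replicates cannot go below 0.1 and was not run. The 3-count floor covers counting error only, since the reads carry no molecular identifiers and may repeat a molecule. Nothing in the labels says that replicates are separate cultures beyond their numbers, so p-values measure the spread between these samples.

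Across genes, residuals of same-numbered libraries correlated with r of 0.12 to 0.21 for RasV12 and w1118. For lglRNAi;RasV12 and w1118, r was 0.18 to 0.22. This link between replicate numbers comes from the data and not from the labels. The main tests held no replicate term and so did not use it, and a replicate block was fitted as an alternative. Named genes are the 15 highest in the PP, the 5 largest changes per direction among called genes, neighbours, genes at the limits, and others chosen after their values were seen. The genes and lists were chosen with earlier results of these data known. Promoters and proteins were not analysed here. The PP is called proximal as in the study's text.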

Additional observations from a re-analysis of the deposited data

How the results depend on the processing

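The number of genes depended on the fold limit, with 86 at a fold of 2 and 22 at a fold of 4, and stayed between 32 and 48 under other minima, constants, scalings and the median of replicates. Leaving out 1 library gave 35 to 42 genes. With limma on log2(TPM + 0.1), 16 genes were higher and 2 lower in RasV12- than in w1118-glands, and with log2(TPM + 1) 1 was lower. Leaving out 1 library gave 9 to 11 higher and 3 to 5 lower genes in that comparison, 9 to 11 and 2 to 3 for lglRNAi;RasV12 against w1118, and 1 to 2 and 0 for lglRNAi;RasV12 against RasV12, where CG8708 was added without RasV12 replicate 3. With RasV12 replicate 1 alone, 0 genes were higher in the last comparison, and with the DESeq2 Wald test, or with only the compared groups in the fit, 1 was lower. For the marker genes, the PP against the entire gland gave 6 higher and 16 lower, but 1 was higher with limma on log2(TPM + 1), and leaving out 1 library gave 5 to 11 higher and 14 to 17 lower genes, the highest count being without PP replicate 2. Scaling by library totals gave 1793 genes higher and 392 lower of all genes for RasV12 against w1118, against 1020 and 810 with TMM, a split that was not examined further. Among 1756 values of single genes under an alternative, 21 lost their call, 47 gained one and 0 called values changed direction. The replicate block left the counts at 10 higher and 4 lower for RasV12 against w1118 and among the 37 genes changed the call of CG5402 alone (1.03). With it, 8 marker genes were higher in the PP, eater and kkv being added. The block was also fitted where r between same-numbered libraries was not above 0.1 throughout, and no link was read from the data there. In these cases r was -0.32 to 0.33 for lglRNAi;RasV12 and RasV12 and -0.21 to -0.09 for the PP. Leaving PP replicate 1 out of the fit, or fitting entire glands alone, both chosen after seeing the data, gave 10 and 4, 10 and 2, and 1 and 0 genes as before. Planned searches of promoters and proteins were not run. The cause of these changes was not tested.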

Other observations

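The same limits were met by 48 genes with another kind of symbol, of which 36 also met them without PP replicate 1. The most abundant were Drs, the new-glue genes ng2 (10864, 9783 and 11281 TPM in the PP-replicates) and ng1 (9552, 10045 and 9820 TPM), and lcs (2496, 5694 and 4195 TPM). Immune genes among them were CecC, AttD, CecA1, Def, CecB and CecA2 for antimicrobial peptides. Others were the peptidoglycan recognition protein genes PGRP-LC (88.2, 114 and 99.2 TPM) and PGRP-LF (15.9, 23.3 and 18.7 TPM). A further one was pirk, an inhibitor of the Imd pathway (6.08, 14.9 and 9.68 TPM). The 12 genes that met the limits only with PP replicate 1 were the proteases Jon65Aiii, Jon65Aiv, yip7, gammaTry, deltaTry and epsilonTry, the lysozymes LysB, LysD and LysS, and the cuticle genes Lcp1, Lcp4 and Lcp65Ab1. As with CG13323 and CG13324, their values were high in 1 library, for example Lcp4 with 50.7, 2.00 and 6.92 TPM. LysP, another lysozyme gene, was in contrast at 462, 964 and 1160 TPM.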
